A study of Mus musculus with 8 samples.

Results

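Krüppel-like factors are zinc finger proteins that bind GC-rich and CACCC-containing promoter DNA and switch genes on or off, depending on the member and its partner proteins. In the intestinal epithelium KLF4 is best known from post-mitotic cells of the upper crypt and villus and from goblet cells, where it restrains division, and KLF5 from the dividing cells of the crypt. The rows described here are those of 10 mouse genes of the family, Klf2, Klf3, Klf4, Klf5, Klf6, Klf7, Klf9, Klf10, Klf13 and Klf15, chosen by name. All 10 were found among the 23951 gene symbols of the table.

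The 8 RNA-seq libraries were made from jejunal crypts of mice in 3 groups. The group labelled CDX2KO_BRAF had 2 libraries and carried Cdx2 f/f, BRAF-V600E f/+ and Villin-CreER(T2). The group labelled SMAD4KO_BRAF had 3 libraries and carried Smad4 f/f, BRAF-V600E f/+ and Villin-CreER(T2). BRAF had 3 libraries and carried BRAF-V600E f/+ and Villin-CreER(T2) without a further floxed gene. All 3 groups therefore share the activating Braf allele, a tamoxifen-inducible recombinase driven by the epithelial Villin promoter, and tamoxifen on 4 consecutive days, with collection 1 day later by 3 mM EDTA and a 70 micron filter. No group without the activated kinase was analysed here, so none of the values shows what BRAF activation does to a Klf gene. The labels give no age and do not say whether libraries of a group came from separate mice. By the sexes given below, BRAF and SMAD4KO_BRAF each include more than 1 mouse, while the 2 libraries labelled CDX2KO_BRAF are both female. The p-values reflect only how far these libraries spread, which may be technical in part, and for the labelled libraries wholly so.

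Values are FPKM, fragments scaled to transcript length and library size, as deposited by the authors. Libraries carry the number of their column. They summed to between 431269 and 595547 FPKM. The files give no counts, so the absolute depth is unknown, and the positions of the lowest values put the relative depth at 0.675 to 1.51, with BRAF library 0 set to 1. All 8 epithelial markers, such as Epcam and Vil1, had an FPKM of at least 1 in every library. By Xist and Y-linked genes, library 0 of SMAD4KO_BRAF and library 0 of BRAF came from males, and the remaining 6 from females. Smad4 lay between 7.66 and 10.7 in SMAD4KO_BRAF, against 42.4 to 47.0 in BRAF. Cdx2 went against its label, at 155 and 121 in the libraries labelled CDX2KO_BRAF and 64.2 to 82.6 in BRAF. The FPKM of a whole gene does not separate its floxed part from the rest, so each direction given below for these 2 libraries rests on their label. In bulk RNA, fewer cells of a type and less RNA per cell cannot be told apart.

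The members covered a wide range of levels. Averaged over the 8 libraries, Klf5 had an FPKM of 115, above 94.1% of the 12084 genes that were tested, which are those that reached an FPKM of 1 in 2 or more libraries. Klf3, a repressor that works through CtBP proteins, averaged 55.7, and Klf6, a widely expressed growth-restraining factor, averaged 55.2. Klf4 averaged 43.9 and Klf10, known as an early TGF-beta response gene, 33.8. Klf13 and Klf9 were near the middle of the tested genes, at 12.7 and 11.6, and Klf7 lay lower, at 5.09. Klf2 and Klf15 did not reach the filter, so 8 of the 10 members were tested.

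Within BRAF crypts the order of mean FPKM was Klf5, Klf6, Klf3, Klf4, Klf10, Klf13, Klf9, Klf7, Klf15 and Klf2. Neighbours whose libraries overlapped in that group were Klf6 and Klf3, Klf3 and Klf4, Klf4 and Klf10, Klf13 and Klf9, and Klf15 and Klf2. The order differed in the other groups. In the libraries labelled CDX2KO_BRAF Klf4 stood in the second place, with its highest library above the lower Klf5 library. In SMAD4KO_BRAF Klf6 stood in the fourth place, below Klf3 and Klf10 by its mean, but its libraries overlapped those of Klf10. Klf4 stood in the fifth place there, overlapping Klf13. Klf5 had the highest mean of the family in all 3 groups.

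**Figure D1:**
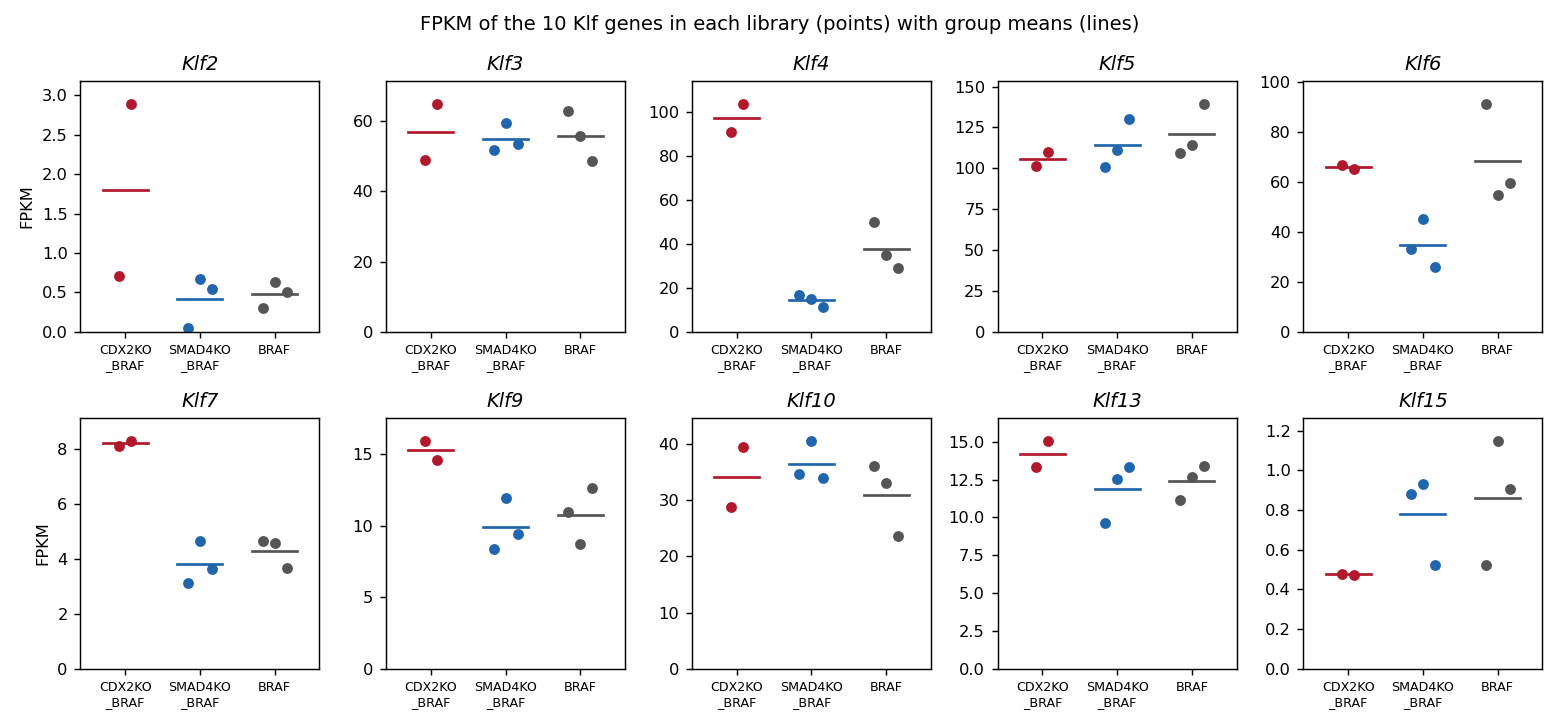
FPKM (vertical axes, each from 0) of the 10 Klf genes in the libraries of the groups labelled CDX2KO_BRAF (2 points), SMAD4KO_BRAF (3 points) and BRAF (3 points), with a line at each group's mean. Klf4 lies at 90.7 and 104 in the libraries labelled CDX2KO_BRAF, at 11.4 to 16.9 in SMAD4KO_BRAF and at 28.8 to 49.8 in BRAF.

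Promoter sequence is shown for Klf4, Klf6 and Klf7, which had the largest log2 differences between groups among the 8 tested members. Each line gives the 250 bases before the annotated start, 5′ to 3′ on the gene's strand, from RefSeq on build GRCm38.p6, while the expression values were made on mm9. Capitals mark the GC box GGGCGG and the KLF core CACCC, or their reverse complements CCGCCC and GGGTG.
Klf4, chr4:55532476-55532725, minus strand: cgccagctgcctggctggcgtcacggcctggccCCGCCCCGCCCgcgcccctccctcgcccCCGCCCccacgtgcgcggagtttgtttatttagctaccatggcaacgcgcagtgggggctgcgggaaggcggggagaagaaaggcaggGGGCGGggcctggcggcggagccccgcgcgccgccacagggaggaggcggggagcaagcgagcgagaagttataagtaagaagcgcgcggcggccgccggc
Klf6, chr13:5861239-5861488, plus strand: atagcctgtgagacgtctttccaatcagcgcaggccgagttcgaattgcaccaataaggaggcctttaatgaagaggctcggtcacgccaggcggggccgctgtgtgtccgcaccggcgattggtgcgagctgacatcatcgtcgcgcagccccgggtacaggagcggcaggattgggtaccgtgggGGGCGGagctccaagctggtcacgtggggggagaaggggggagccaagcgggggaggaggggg
Klf7, chr1:64121390-64121639, minus strand: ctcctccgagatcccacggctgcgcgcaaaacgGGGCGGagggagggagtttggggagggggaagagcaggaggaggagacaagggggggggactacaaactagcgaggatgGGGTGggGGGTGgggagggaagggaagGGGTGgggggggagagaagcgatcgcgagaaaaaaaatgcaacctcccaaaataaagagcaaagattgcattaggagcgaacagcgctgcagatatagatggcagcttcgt

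Such windows were found for 8 of the 10 members, all but Klf5 and Klf10. The Klf4 window holds 4 GC boxes and no CACCC on either strand, the Klf6 window 1 GC box and no CACCC, and the Klf7 window 1 GC box and 3 CACCC matches, all as GGGTG. Among all 32851 RefSeq windows of this length, 32.7% hold a GC box and 52.0% a CACCC match on either strand. The CDX-type letters ATAAA or TTTAT occur once each in the Klf4, Klf7 and Klf13 windows and in none of the other 5, and in 37.3% of all windows. The SMAD-type letters CAGAC or GTCTG occur once each in the Klf3 and Klf15 windows, and in 42.2% of all windows. Overlapping matches were each counted, as in the Klf4 GC boxes. These matches describe the sequence and are not evidence of binding.

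The libraries labelled CDX2KO_BRAF were compared with BRAF to ask what the Cdx2 deletion adds to the activated kinase. Klf4 and Klf7 rose, and no member fell. These are 2 of the 8 tested members, where 14.1% of all tested genes passed and 6.89% passed upward (limma, adjusted p under 0.05 over all tested genes). The median change of the 8 members was 0.16 on the log2(FPKM + 1) scale, beside 0.02 over all tested genes. For genes of low FPKM that scale gives changes smaller than the FPKM ratio.

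Klf4 had an FPKM of 90.7 and 104 in the libraries labelled CDX2KO_BRAF, against 49.8, 34.8 and 28.8 in BRAF libraries 0 to 2. Both labelled libraries lay above every BRAF library. The means were 97.1 ± 9.07 (SD, n = 2) and 37.8 ± 10.8 (n = 3), a ratio of 2.57. On the log2 scale the rise was 1.37 ± 0.25 (SE; 95% interval 0.79 to 1.95; limma, adjusted p = 0.0131). Among female libraries alone it was 1.58 (adjusted p = 0.00990). The call ended when library 0 or library 1 of the labelled group was left out (adjusted p = 0.0640 and 0.102), which leaves 1 library whose spread is assumed to be that of the others.

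Klf7, known from neurons and from fat cell precursors, had an FPKM of 8.13 and 8.32 in the libraries labelled CDX2KO_BRAF and 4.65, 4.58 and 3.67 in BRAF libraries 0 to 2. The groups did not overlap. The means were 8.23 ± 0.134 (SD, n = 2) and 4.30 ± 0.543 (n = 3), and the rise was 0.81 ± 0.17 on the log2 scale (95% interval 0.41 to 1.20; limma, adjusted p = 0.0217). It was 0.85 among female libraries alone (adjusted p = 0.0372). The call ended without BRAF library 2 (adjusted p = 0.0651) and without library 0 or library 1 of the labelled group (adjusted p = 0.112 and 0.129).

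Klf9, which responds to thyroid hormone and glucocorticoids, had an FPKM of 15.97 and 14.6 in the libraries labelled CDX2KO_BRAF, against 10.9, 8.72 and 12.7 in BRAF. Here too the groups did not overlap, but the difference of 0.48 ± 0.19 on the log2 scale did not pass (limma, adjusted p = 0.144). In all, 3 of the 8 tested members had groups that did not overlap, all higher, where 48.4% of all tested genes did not overlap and 25.7% did so upward. Klf13, which activates chemokine transcription in T cells, was at 13.4 and 15.1 in the labelled libraries and 11.2 to 13.4 in BRAF (0.18 ± 0.16; limma, adjusted p = 0.476).

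Klf5, Klf6, Klf3 and Klf10 did not pass. Klf5 had an FPKM of 102 and 110 in the libraries labelled CDX2KO_BRAF, against 110, 114 and 139 in BRAF, and the groups overlapped narrowly. Its difference was -0.19 ± 0.16 on the log2 scale, with a 95% interval of -0.56 to 0.19 (limma, adjusted p = 0.474). Klf6 was at 66.9 and 65.2 in the labelled libraries and at 91.3, 54.6 and 59.4 in BRAF libraries 0 to 2, inside the BRAF range. Its interval of -0.67 to 0.64 was the widest of the 8 members in this comparison (limma, adjusted p = 0.980). For Klf3 the interval was -0.36 to 0.41 and for Klf10 -0.36 to 0.64 (limma, adjusted p = 0.934 and 0.692).

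**Figure D2:**
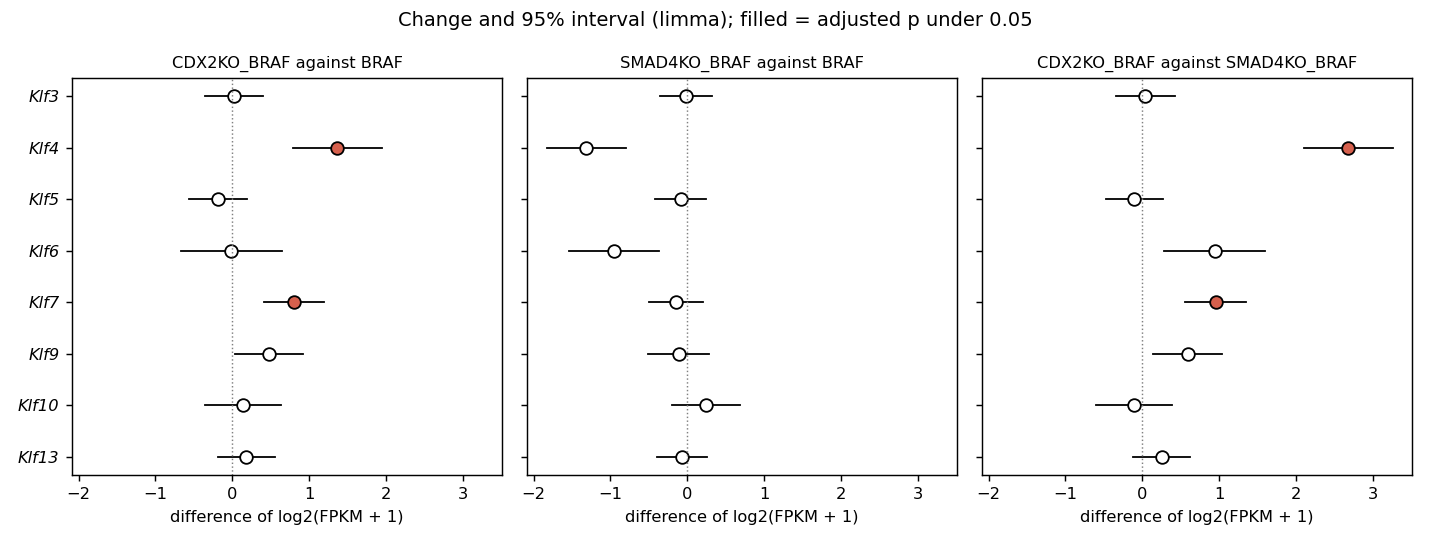
Difference of log2(FPKM + 1) with its 95% interval from limma (horizontal axis) for the 8 tested Klf genes, in the libraries labelled CDX2KO_BRAF against BRAF, in SMAD4KO_BRAF against BRAF and in the libraries labelled CDX2KO_BRAF against SMAD4KO_BRAF. Filled points passed at an adjusted p under 0.05: Klf4 (1.37) and Klf7 (0.81) in the first panel, none in the second, and Klf4 (2.68) and Klf7 (0.96) in the third.

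The comparison of SMAD4KO_BRAF with BRAF asks what is added by deleting Smad4, the common partner of receptor-regulated SMADs in BMP and TGF-beta signalling, on top of the activated kinase. None of the 8 tested members passed, where 0.0745% of all tested genes did (limma). At an unadjusted p under 0.05 there were 2, both lower, beside 15.1% of all tested genes and 9.05% for lower ones. The same 2 members, Klf4 and Klf6, were those whose groups did not overlap, beside 19.3% of all tested genes and 10.4% for lower ones. The median change of the members was -0.10, beside -0.01 over all tested genes. Both comparisons with BRAF use the same BRAF libraries.

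Klf4 had an FPKM of 16.9, 14.9 and 11.4 in SMAD4KO_BRAF libraries 0 to 2, where the highest library lay below the lowest BRAF library at 28.8. The means were 14.4 ± 2.82 in SMAD4KO_BRAF and 37.8 ± 10.8 in BRAF (SD, n = 3 each), a ratio of 0.381. The difference of -1.31 ± 0.22 on the log2 scale (95% interval -1.83 to -0.79) did not pass over all genes (limma, adjusted p = 0.139), and ranked as number 43 of the tested genes by p. Among female libraries alone it was -1.22 (adjusted p = 0.176), and the single male libraries were at 16.9 (SMAD4KO_BRAF) and 49.8 (BRAF).

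Klf6 had an FPKM of 33.1, 45.2 and 25.8 in SMAD4KO_BRAF libraries 0 to 2, against 91.3, 54.6 and 59.4 in BRAF libraries 0 to 2. All SMAD4KO_BRAF libraries were lower than all BRAF libraries, and BRAF library 0 stood well above its group. The means were 34.7 ± 9.80 and 68.4 ± 19.9 (SD, n = 3 each), and the difference of -0.96 ± 0.25 on the log2 scale did not pass (95% interval -1.55 to -0.37; limma, adjusted p = 0.215). Without BRAF library 0 it was -0.73.

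Markers of absorptive enterocytes were read beside Klf4 and Klf6. All 13 markers had negative differences in SMAD4KO_BRAF against BRAF, 9 of them at an unadjusted p under 0.05 and none after adjustment (limma). Of all tested genes 15.1% had an unadjusted p under 0.05 in that comparison, 9.05% with a lower value. Their summed FPKM was 21330, 9324 and 7202 in SMAD4KO_BRAF libraries 0 to 2, against 31214, 14626 and 16822 in BRAF libraries 0 to 2, with no marker at 0 in any library. In the libraries labelled CDX2KO_BRAF, where Klf4 was highest, that sum was 8887 and 3843, below every BRAF library and overlapping SMAD4KO_BRAF. There 9 of the 13 markers fell against BRAF (limma), among them the keratin gene Krt20, with an FPKM of 219 and 107 in the labelled libraries and 515 to 1054 in BRAF. Summed goblet cell markers were 5928 and 5050 in the labelled libraries, 2576 to 6162 in SMAD4KO_BRAF and 3933 to 4152 in BRAF. Of these 8 genes 4 had positive and 4 negative differences in the labelled libraries against BRAF, and 1 rose (limma). Tff3 averaged 2658 in the labelled libraries and 1154 in BRAF, and Muc2 136 and 228. Summed markers of Paneth cells, 7 genes, were 6872 and 5211 in the labelled libraries, 15566 to 26338 in SMAD4KO_BRAF and 8910 to 17894 in BRAF. One of them, Pla2g2a, was at 2546 in SMAD4KO_BRAF library 1, which had the highest sum, and at 15.6 to 49.9 in every other library. The cause of that difference was not tested. In the labelled libraries 2 of the 7 fell against BRAF and 3 against SMAD4KO_BRAF (limma). For all marker counts of the labelled libraries the background is 14.1% of all tested genes against BRAF and 11.6% against SMAD4KO_BRAF, in either direction. Summed crypt stem cell markers, also 7 genes, were 535 and 332 in the labelled libraries, 341 to 612 in SMAD4KO_BRAF and 238 to 495 in BRAF. In SMAD4KO_BRAF against BRAF 6 of these 7 had positive differences, 3 at an unadjusted p under 0.05 and none after adjustment (limma). In the labelled libraries 1 stem cell marker rose against BRAF, and 2 fell against SMAD4KO_BRAF. The part of any of these cell types in the Klf4 and Klf6 values was not tested.

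None of the other 6 tested members had groups without overlap here. Klf5 lay at 101 to 130 in SMAD4KO_BRAF and 110 to 139 in BRAF, with a difference of -0.08 and an interval of -0.42 to 0.25. Klf10 lay at 34.0 to 40.7 in SMAD4KO_BRAF and 23.7 to 36.1 in BRAF, and was the one tested member with a positive difference (0.25 ± 0.19; limma, adjusted p = 0.537). Klf3, Klf7, Klf9 and Klf13 had differences between -0.15 and -0.01, and none passed (limma, adjusted p 0.636 to 0.975).

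The libraries labelled CDX2KO_BRAF were also compared with SMAD4KO_BRAF, without the BRAF libraries in the contrast. Klf4 and Klf7 rose, which are 2 of the 8 tested members where 11.6% of all tested genes passed and 6.6% passed upward (limma). Klf4 averaged 97.1 in the labelled libraries and 14.4 in SMAD4KO_BRAF, a ratio of 6.73. Its rise was 2.68 ± 0.25 on the log2 scale (95% interval 2.102 to 3.26; limma, adjusted p = 0.00139), and it passed under all 20 alternatives, with adjusted p between 0.000743 and 0.0234. The rise of Klf4 ranked as number 84 of the tested genes by p.

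Klf7 averaged 8.23 ± 0.134 in the labelled libraries (SD, n = 2) and 3.80 ± 0.776 in SMAD4KO_BRAF (n = 3), a rise of 0.96 ± 0.17 on the log2 scale (limma, adjusted p = 0.0140). Its call ended without library 0 or library 1 of the labelled group (adjusted p = 0.0884 and 0.101). Klf6, at 66.9 and 65.2 in the labelled libraries against 25.8 to 45.2 in SMAD4KO_BRAF, had a difference of 0.94 ± 0.28 that did not pass (limma, adjusted p = 0.0724). It passed without SMAD4KO_BRAF library 1 (0.0474), without BRAF library 0 (0.0471) and with library weights (0.0319). Klf9 had a difference of 0.59 ± 0.19 that did not pass (limma, adjusted p = 0.0870; 0.0497 with library weights). The groups did not overlap for 5 of the 8 tested members, Klf4, Klf6, Klf7, Klf9 and Klf13, all higher, beside 47.3% of all tested genes and 25.1% for higher ones.

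The ratio of Klf4 to Klf5 shows the same values without the scaling between libraries. Klf4 FPKM was 89.2% and 94.3% of Klf5 FPKM where labelled CDX2KO_BRAF, 16.8%, 13.4% and 8.74% for SMAD4KO_BRAF, and 45.5%, 30.4% and 20.7% in BRAF libraries 0 to 2. No library of one group overlapped another group in this ratio, which was examined after the values of both genes were seen and has no test. The summed FPKM of the 10 members was 376 and 424 in the labelled libraries, 260 to 302 in SMAD4KO_BRAF and 320 to 377 in BRAF. Klf5 made up 25.9% to 27.1% of that sum in the labelled libraries, 36.8% to 46.1% in SMAD4KO_BRAF and 29.0% to 42.1% in BRAF.

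**Figure D3:**
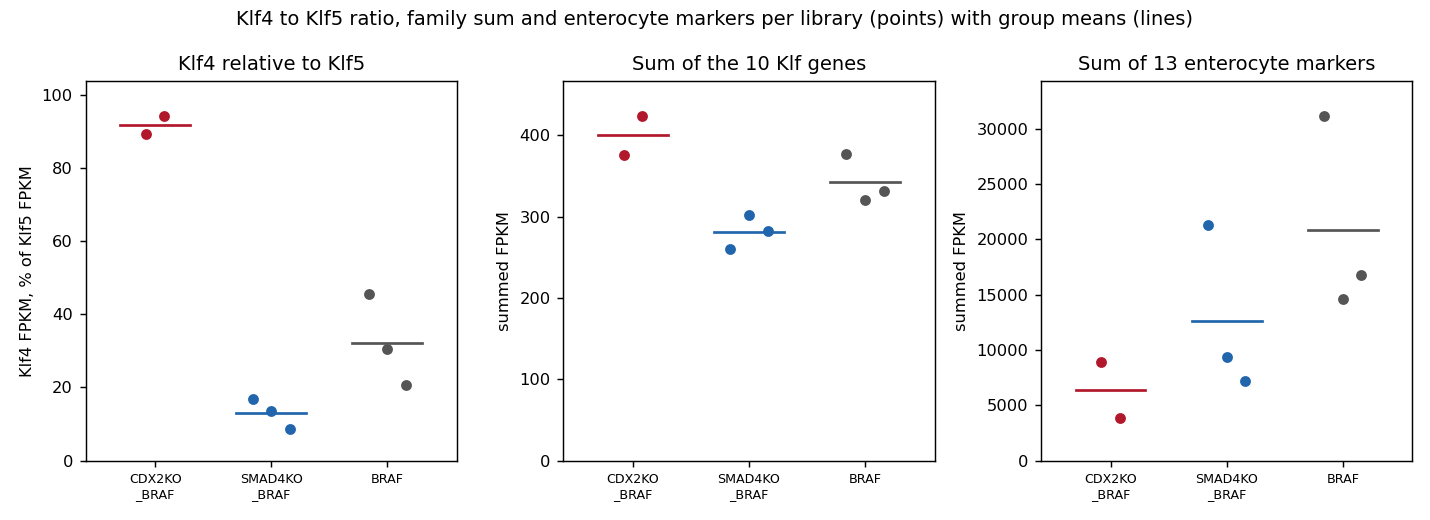
Klf4 FPKM as a percentage of Klf5 FPKM, the summed FPKM of the 10 Klf genes and the summed FPKM of 13 enterocyte markers (vertical axes, from 0) in each library of the groups labelled CDX2KO_BRAF, SMAD4KO_BRAF and BRAF, with a line at each group's mean. The percentage lies at 89.2 and 94.3 in the libraries labelled CDX2KO_BRAF, between 8.74 and 16.8 in SMAD4KO_BRAF and between 20.7 and 45.5 in BRAF.

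The 2 members under the filter were low everywhere. Klf2, a factor of endothelium and resting T cells, had an FPKM of 0.707 and 2.89 in the libraries labelled CDX2KO_BRAF, 0.0477, 0.674 and 0.537 in SMAD4KO_BRAF and 0.297, 0.627 and 0.501 in BRAF. Both labelled libraries were above every other library, library 0 only narrowly, at 0.707 against 0.674, and library 1 stood apart from the other 7. Of all tested genes 48.4% had groups without overlap against BRAF and 47.3% against SMAD4KO_BRAF, in either direction. The summed FPKM of 14 markers of T cells and intraepithelial lymphocytes was 16.7 and 74.3 in the labelled libraries, 56.3 to 517 in SMAD4KO_BRAF and 37.5 to 1074 in BRAF. S1pr1 in library 0 of the labelled group and Cd8b1 in BRAF library 0 were listed at 0. For 9 endothelial markers the sums were 3.70 and 5.91, 3.69 to 5.53, and 3.93 to 4.66 in the same order of groups, and library 1 of the labelled group, the highest in Klf2, also had the highest of these sums. Cldn5 was listed at 0 in 7 of the 8 libraries, and of the other endothelial markers Cdh5, Kdr or Tie1 in some. The part of these cell types in the Klf2 values was not tested. Without a filter the Klf2 difference between the labelled libraries and BRAF was 0.81 ± 0.36 (limma, adjusted p = 0.263).

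Klf15, a regulator of amino acid and glucose metabolism, had an FPKM of 0.479 and 0.474 in the libraries labelled CDX2KO_BRAF, 0.880, 0.931 and 0.522 in SMAD4KO_BRAF and 0.522, 1.15 and 0.905 in BRAF. The labelled libraries were the lowest of the 8, with 0.479 close to the 0.522 of the next libraries. Of all tested genes 48.4% had groups without overlap against BRAF and 47.3% against SMAD4KO_BRAF, in either direction. Without a filter the difference from BRAF was -0.32 ± 0.17 (limma, adjusted p = 0.345).

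Other genes of the KLF and SP family were read from a list of 16, of which 7 reached the filter. None of the 7 passed in any of the 3 comparisons. Sp1 and Sp3, broadly expressed GC-box binding factors, averaged 25.2 and 28.0 FPKM in the libraries labelled CDX2KO_BRAF, 23.0 and 24.9 in SMAD4KO_BRAF and 22.4 and 23.7 in BRAF. Klf16 averaged 10.5, 11.2 and 8.83 in the same order of groups. Sp5, a Wnt target gene, had an FPKM of 1.13, 0.553 and 0.693 in SMAD4KO_BRAF and 2.30, 1.37 and 1.59 in BRAF, without overlap (-0.62 ± 0.20; limma, adjusted p = 0.271). Sp7 and Sp8 were listed at 0 in all 8 libraries.

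Proteins that work with the family or control its stability were represented by 14 genes, all tested. In the libraries labelled CDX2KO_BRAF 2 of them rose against BRAF and none fell (limma). That share is near the 14.1% of all tested genes that passed in this comparison, which is also its background in the lists that follow. Wwp1, which encodes a ubiquitin ligase reported to target KLF5 and KLF2, had an FPKM of 9.02 and 9.59 in the labelled libraries and 5.64 to 6.59 in BRAF (0.55 ± 0.15; limma, adjusted p = 0.0469). Fhl3, which encodes a LIM-domain cofactor, had an FPKM of 11.3 and 11.99 against 1.94 to 4.72 (1.67 ± 0.44; limma, adjusted p = 0.0465). Ctbp2, which encodes a corepressor used by KLF3, was at 37.8 and 35.8 in the labelled libraries and 24.4 to 28.4 in BRAF and did not pass (0.44 ± 0.14; limma, adjusted p = 0.0768). None of the 14 passed in SMAD4KO_BRAF against BRAF or in the labelled libraries against SMAD4KO_BRAF.

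Of 12 genes reported elsewhere as KLF4 or KLF5 targets in epithelium, Cdk1 rose and Pim1 and Pdgfa fell in the libraries labelled CDX2KO_BRAF against BRAF (limma, adjusted p = 0.0378, 0.0397 and 0.0406). The mitotic kinase gene Cdk1 averaged 39.5 FPKM in the labelled libraries and 24.8 in BRAF. Pdgfa, which encodes a growth factor, had an FPKM of 4.31 and 9.55 in the labelled libraries, 40.6, 40.4 and 38.5 in SMAD4KO_BRAF and 23.3, 13.2 and 15.6 in BRAF. It fell against SMAD4KO_BRAF as well (-2.45 ± 0.32; limma, adjusted p = 0.00487). In SMAD4KO_BRAF against BRAF none of the 12 passed, with Pdgfa at 1.19 ± 0.28 (limma, adjusted p = 0.188) and the cell cycle inhibitor gene Cdkn1a at -1.03 ± 0.46 (adjusted p = 0.345). Cdkn1a averaged 101 in the labelled libraries, where Klf4 was highest, and 187 in BRAF, with overlap. Alpi averaged 77.0 and 581 there and did not pass (-2.58 ± 0.70; limma, adjusted p = 0.0520). Of the 12 genes 5 had positive and 7 negative differences in the labelled libraries against BRAF. The part of Klf4 or Klf5 in these values was not tested.

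Several Klf genes respond to hormones or signals, and lists for these inputs were read beside the members. Of 10 glucocorticoid response genes, Fkbp5 and Zbtb16 rose in the libraries labelled CDX2KO_BRAF against BRAF (limma, adjusted p = 0.0369 and 0.00480). There Klf9 was at 15.97 and 14.6 and did not pass. Of the 10 genes 7 had positive and 3 negative differences, and Per1 averaged 11.1 in the labelled libraries and 11.3 in BRAF. The part of glucocorticoids in the Klf9 values was not tested. Fkbp5, which encodes a cochaperone of the glucocorticoid receptor, had an FPKM of 223 and 282 in the labelled libraries and 35.2 to 90.1 in BRAF. None of these 10 genes passed in SMAD4KO_BRAF against BRAF. Of 6 tested genes of the MEK5-ERK5 and MEF2 pathway, which induces Klf2 and Klf4 in endothelium, Mef2a rose in the labelled libraries against BRAF, at 14.9 and 14.0 FPKM against 9.34 to 9.94 (0.53 ± 0.12; limma, adjusted p = 0.0265). It was the only one to pass, and 3 of the 6 had positive and 3 negative differences. The kinase genes Map2k5 and Mapk7 averaged 7.80 and 6.32 in the labelled libraries and 7.21 and 6.46 in BRAF. The part of this pathway in the Klf2 and Klf4 values was not tested.

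Immediate early genes, which tissue dissociation can also induce, had negative differences for 13 of 14 genes in SMAD4KO_BRAF against BRAF. None passed (limma), and 5 had an unadjusted p under 0.05, as did 15.1% of all tested genes. Atf3, a stress-induced factor, had an FPKM of 1.95, 2.74 and 2.22 in SMAD4KO_BRAF and 13.7, 12.5 and 4.78 in BRAF libraries 0 to 2 (-1.67 ± 0.37; limma, adjusted p = 0.179). In the libraries labelled CDX2KO_BRAF 1 of the 14 rose and 1 fell against BRAF, where 14.1% of all tested genes passed (limma). Against SMAD4KO_BRAF 3 rose, where 11.6% of all tested genes passed and 6.6% passed upward. Their part in the Klf4 and Klf6 values was not tested.

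Among 9 tested targets of BMP and TGF-beta signals, 1 fell in SMAD4KO_BRAF against BRAF, where 0.0745% of all tested genes passed (limma). In the libraries labelled CDX2KO_BRAF 3 rose and 2 fell against BRAF (limma), where 14.1% of all tested genes passed. Id3, whose protein blocks DNA binding of helix-loop-helix factors, had the same order of groups as Klf4, with an FPKM of 108 and 83.8 in the labelled libraries, 6.74 to 9.97 in SMAD4KO_BRAF and 28.4 to 39.3 in BRAF. Tgfbi, which encodes a matrix protein, did not, at a mean of 1.41 in the labelled libraries, 17.8 in SMAD4KO_BRAF and 49.6 in BRAF.

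**Figure D4:**
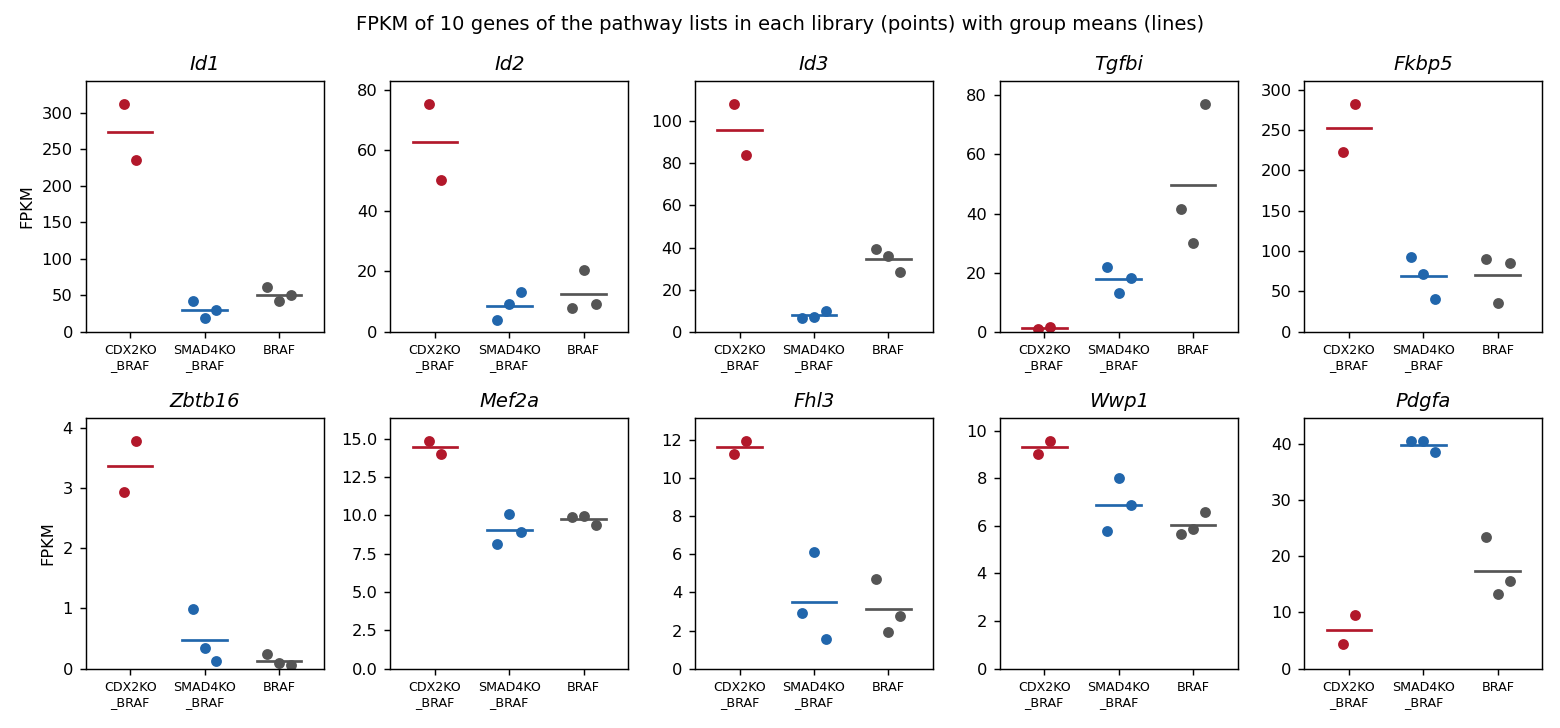
FPKM (vertical axes, from 0) of 10 genes from the lists of BMP and TGF-beta targets, glucocorticoid response, MEF2 pathway, KLF co-regulators and KLF targets, in each library of the groups labelled CDX2KO_BRAF, SMAD4KO_BRAF and BRAF, with a line at each group's mean. Fhl3 lies at 11.3 and 11.99 in the libraries labelled CDX2KO_BRAF, against 1.94 to 4.72 in BRAF, and Pdgfa is highest in SMAD4KO_BRAF, at 38.5 to 40.6.

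For each tested member the 3 genes with the most similar values over the 8 libraries were taken by Pearson's r of log2(FPKM + 1), among 8383 genes with a mean FPKM of at least 5. These r describe 8 libraries of 3 groups that share one scaling, and with so many candidates high values are found for any gene. For Klf4 they were the sulfate transporter gene Slc26a2 (r = 0.994), the cell cycle cofactor gene Sertad1 (0.993) and the interferon-induced gene Oas3 (0.988), and after subtraction of the group means r was 0.878, 0.860 and 0.843. Slc26a2 had an FPKM of 95.7 and 108 in the libraries labelled CDX2KO_BRAF, 28.6 to 30.5 in SMAD4KO_BRAF and 45.6 to 66.6 in BRAF, the same order of groups as Klf4.

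For Klf7 the most similar gene was Mef2a (r = 0.990), followed by the sorting nexin gene Snx2 and the ubiquitin ligase subunit gene Wdr26. For Klf5 they were Ppargc1b, which encodes a coactivator of mitochondrial genes, Ntan1 and the mitochondrial dehydrogenase subunit gene Idh3g (r = 0.939, 0.923 and 0.908). For Klf6 they were Vapa, Rhou and Prkx (r = 0.967, 0.962 and 0.957), and for Klf9 Las1l, Mapkapk2 and Ctbp2 (r = 0.977, 0.975 and 0.967). Klf3 and Klf10 shared Rabgap1l among their 3, and in each of the 3 groups the library highest in Klf3 was also the library highest in Klf10.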

How the data were processed

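The authors deposited 1 table of FPKM values. Reads of 50 bp from 1 end were made from TruSeq libraries, per the labels' protocols. TopHat2 2.1.0, Cuffnorm 2.2.1 and Cuffdiff 2.2.1 and the mouse build mm9 are named in the submitters' processing notes, without the program that made the table. The annotation and the use of strand are not given in the sources used here, so reads of a gene and an antisense partner cannot be told apart. Columns are numbered from 0 and titles from 1, so columns were matched to groups only. A further 3 columns match no sample and were not used.

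From the deposited FPKM, log2(FPKM + 1) was computed, and genes reaching an FPKM of 1 in 2 or more libraries were fitted in 1 model of 3 groups with limma 3.58.1 (R 4.3.3, mean-variance trend). All p-values are two-sided and adjusted by Benjamini-Hochberg over the 12084 tested genes of a comparison, at 0.05. The precision rests on the spread between libraries, with a median standard error over tested genes of 0.168 for SMAD4KO_BRAF against BRAF. The fit was tested on simulated data with known changes and normal noise of each gene's own spread. Log2 changes of 1 were called in 53.9% of cases for SMAD4KO_BRAF against BRAF. For the labelled libraries this was 47.5% against BRAF and 49.9% against SMAD4KO_BRAF. Log2 changes of 2 were called in 83.4% to 86% of cases, and 4.51% to 5.17% of calls were false. A member with a change near 1 can therefore fail to pass. Members and lists were chosen with earlier results of these data known. All members are named, of each list up to 4 genes with the smallest adjusted p, and per member the 3 most similar genes; any other gene named was chosen after its values were seen. The alternatives were another pseudocount, 2 other filters, 2 rescalings, only the groups compared, other variance models, library weights, a block, sex and leaving out each library. Promoter sequences were read with Python 3.11.15 and pandas 2.3.3, and figures drawn with matplotlib 3.10.9.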

Additional observations from a re-analysis of the deposited data

How the results depend on the processing

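Each comparison was repeated under 20 alternatives. Klf4 kept its direction in all of them in each of the 3 comparisons, and so did Klf7 in both comparisons of the libraries labelled CDX2KO_BRAF. In SMAD4KO_BRAF against BRAF the count of members called was 0 and became 2 with library weights, which call Klf4 (adjusted p = 0.0341) and Klf6 (0.0433), and 1 with sex as a term (Klf4, 0.0311), with 0 to 0 when 1 library was left out. Over all genes the number called went to 1069 with library weights and 78 with sex as a term, beside 9, so that comparison depends on how the libraries are weighted. In the libraries labelled CDX2KO_BRAF against BRAF the count was 2, and 0 to 2 when 1 library was left out, with 409 to 2602 of all genes called over the alternatives. Against SMAD4KO_BRAF it was 2, became 4 with library weights and lay between 1 and 3 when 1 library was left out, with 234 to 2447 of all genes called. The causes of these changes were not tested, except that leaving out a library of the group of 2 leaves 1. With the column number as a replicate block the count against BRAF was 1, since Klf7 no longer passed (adjusted p = 0.0594). Over 7 pairs of libraries with the same column number, r across genes was -0.109 to 0.241, beside -0.332 to 0.312 over 14 other pairs. Of the 8 libraries 2 correlated best with their own number. These r are of deviations from group means, which mirror each other in the group of 2, so they cannot exclude a pairing. Library 0 had the lowest summed T cell markers of each group, at 37.5 (BRAF), 56.3 (SMAD4KO_BRAF) and 16.7 (labelled), and the highest enterocyte sum. Whether the numbers mark a pairing is unknown.

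Members with differences near 0 changed sign. In SMAD4KO_BRAF against BRAF, Klf3 was at 0.14 after quantile normalization, 0.0915 with library weights and 0.11 in female libraries alone, Klf5 at 0.13 after quantile normalization, and Klf7 and Klf9 at 0.00477 and 0.0100 in female libraries alone. Leaving out 1 library gave ranges of -0.11 to 0.0737 for Klf3, -0.18 to 0.0204 for Klf5, -0.24 to 0.00482 for Klf9 and -0.15 to 0.0594 for Klf13. In the labelled libraries against BRAF, Klf3 was at -0.0299 with the block and Klf6 at 0.0713 with library weights, 0.0898 with sex as a term and 0.21 in female libraries alone, with ranges of -0.17 to 0.22 for Klf3, -0.16 to 0.21 for Klf6 and -0.0801 to 0.36 for Klf10 when 1 library was left out. Against SMAD4KO_BRAF, Klf3 was at -0.13 after quantile normalization and -0.0154 with the block, with ranges of -0.16 to 0.24 for Klf3 and -0.33 to 0.12 for Klf10. None of these sign changes passed a test. All 30 mean levels moved by less than 1 SD under median-ratio rescaling, and no alternative put the median change of all genes further than 0.0694 from 0.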
